A study of Mus musculus with 9 samples.

Results

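The genes described here encode the proteins of the mitochondrial ribosome, taken as every gene symbol made of Mrpl or Mrps, a number and at most 1 further letter. The rule found 77 genes, 48 named for the large subunit (Mrpl) and 29 for the small subunit (Mrps), among 37187 genes listed for LSK cells and 45076 listed for neutrophils. The rule uses the name and no measured value, though the family itself was picked for description with earlier results of these data known. One of them, Mrpl57, appears under its older symbol Mrp63 in the LSK table.

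Transcripts were measured by bulk RNA-seq in cells sorted from mouse bone marrow, where LSK cells are the fraction that holds blood stem cells and multipotent progenitors, and Ly6G+ cells are neutrophils. The LSK-KO group had 2 libraries and the N-KO group 3, both of genotype Spop(D/D), against 2 LSK-WT and 2 N-WT libraries of genotype Spop(+/+), all from mice aged 4 to 12 weeks. Spop is the substrate-binding subunit of a cullin-3 ubiquitin ligase, and the title of the series puts it as a brake on inflammation-driven blood formation that acts on MyD88. The labels name no Cre driver, no deleted stretch of Spop and no treatment, and do not say that replicates came from separate mice, and the spread behind each p-value is that between libraries, perhaps technical only.

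Mitochondria keep a small genome that encodes core subunits of the respiratory chain, and a ribosome of their own translates those messages inside the organelle. Its RNAs come from the mitochondrial genome, but all of its proteins are encoded in the nucleus, made in the cytosol and imported. About as many of these proteins descend from the bacterial ribosome as were added in the course of mitochondrial evolution, and mutations in several of them cause inherited respiratory chain disease. Blood stem cells are known for low reliance on mitochondrial respiration at rest, and neutrophils for few mitochondria at maturity.

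Counted reads ran from 19899886 to 20264417 in LSK-KO and from 18827892 to 20013498 in LSK-WT libraries, and from 26373612 to 27434086 in N-KO and from 21012702 to 25897464 in N-WT libraries. Levels are given in CPM, the reads of a gene relative to the TMM-scaled size of its library, and 3 reads, taken as the floor, equal 0.109 to 0.159 CPM. Spop itself was at 312 and 305 CPM in LSK-KO against 380 and 390 CPM in LSK-WT libraries (log2 fold change -0.32, SE 0.0889, adjusted p = 0.0118). In neutrophils Spop was at 158, 178 and 210 CPM in N-KO against 135 and 194 CPM in N-WT libraries (adjusted p = 0.901), so whole-gene reads did not mark the genotype there. The LSK-KO 2 library carries a neutrophil entry in its cell type field, but its title and source name say LSK, and its reads of Ly6g were 0, as in the other LSK libraries. A pair of neutrophil libraries stood apart. N-WT 2 had 2070 CPM in 10 B cell markers and 1483 CPM in 10 T and NK cell markers, against 76.1 and 190 CPM in N-WT 1, and 22480 CPM in 8 neutrophil markers, against 79650 CPM in N-WT 1. N-KO 3 had 18340 CPM in 8 red cell markers, against 36.8 and 2.17 CPM in the other N-KO libraries and 1730 and 3662 CPM in N-WT 1 and N-WT 2. It also had 477700 CPM in the neutrophil markers.

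The stretches just upstream of 4 members are shown because they hold the ETS core or the NRF1 site, both more common among these genes than in promoters at large, and because Mrps22 and Mrpl45 rose in LSK-KO cells while Mrpl34 and Mrpl52 did not pass the test. Each is 250 bases of RefSeq sequence (GRCm38.p6), 5′ to 3′ on the strand of the gene and ending just before the RefSeq start, with no annotated exon in the window, and capitals mark the matches described next. They are chr9:98601680-98601929 on the minus strand for Mrps22, chr11:97315466-97315715 on the plus strand for Mrpl45, chr8:71464676-71464925 on the plus strand for Mrpl34 and chr14:54426659-54426908 on the plus strand for Mrpl52.
Mrps22: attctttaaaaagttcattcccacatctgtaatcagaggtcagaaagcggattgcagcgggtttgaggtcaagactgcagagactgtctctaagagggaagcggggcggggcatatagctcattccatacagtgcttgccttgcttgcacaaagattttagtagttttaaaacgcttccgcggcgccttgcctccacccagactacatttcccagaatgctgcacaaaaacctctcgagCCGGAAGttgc
Mrpl45: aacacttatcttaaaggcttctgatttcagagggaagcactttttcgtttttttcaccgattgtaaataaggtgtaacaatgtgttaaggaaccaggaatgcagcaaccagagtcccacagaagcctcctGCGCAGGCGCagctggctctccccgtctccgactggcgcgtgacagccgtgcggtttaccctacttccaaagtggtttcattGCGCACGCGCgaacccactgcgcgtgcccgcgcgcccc
Mrpl34: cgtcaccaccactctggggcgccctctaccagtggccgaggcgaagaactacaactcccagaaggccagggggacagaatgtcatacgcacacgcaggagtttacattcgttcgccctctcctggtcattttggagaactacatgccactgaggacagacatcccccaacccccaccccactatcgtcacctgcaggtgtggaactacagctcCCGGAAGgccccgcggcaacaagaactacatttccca
Mrpl52: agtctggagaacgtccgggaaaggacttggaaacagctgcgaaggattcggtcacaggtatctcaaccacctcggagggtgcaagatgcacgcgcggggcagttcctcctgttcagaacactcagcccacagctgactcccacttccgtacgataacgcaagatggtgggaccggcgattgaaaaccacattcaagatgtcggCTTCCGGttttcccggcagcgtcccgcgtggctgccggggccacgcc

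Capitals in the Mrps22, Mrpl34 and Mrpl52 stretches mark the core bound by ETS-family factors, CCGGAAG or its reverse complement, and in the Mrpl45 stretch a pair of matches to the site of nuclear respiratory factor 1 (NRF1), which reads GCGCA, any base and GCGC. NRF1 and the ETS-family GABP are known as activators of nuclear genes for mitochondrial proteins. RefSeq promoters of 300 bases (250 before and 50 after the start) were at hand for 68 of the 77 members. On either strand, the ETS core was in 25 of the 68 (36.8%), against 12.9% of 17492 protein-coding promoters, and the NRF1 site in 13 (19.1%), against 7.17%. The site AAGATGGCG, bound by YY1, was in 8 (11.8%), against 2.14%. Other motifs were about as frequent or less frequent, with CACGTG, the E-box bound by Myc, in 5 of 68 (7.35%) against 8.91%, CCAAT in 27 (39.7%) against 42.3%, GGGCGG in 34 (50%) against 49.2% and TATAAA in 5 (7.35%) against 14.8%. Median GC content was 58.0% in member promoters against 56.3% in all. A match is only a match of letters, and no binding was measured here.

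Many of the members start close to a neighbour on the other strand. A protein-coding gene started on the opposite strand within 1000 bases in 33 of the 77 (42.9%), against 2380 of 21924 protein-coding genes (10.9%) in GENCODE M21. This includes pairs whose genes overlap at their starts, such as Mrpl48 and Rab6a, Mrpl43 and Twnk or Mrpl18 and Tcp1. In 1 pair both genes are members, Mrpl46 and Mrps11 on chromosome 7. The 77 genes lie on 17 chromosomes, with 10 of them on chromosome 11, so they are not a cluster. Reads were counted from kits that do not keep the strand, and 32 of the 77 share exon bases with another gene. Mrpl53 shares 88.0% of its exon bases with a predicted gene on the same strand. Mrps25 has 69.8% of its exon bases opposite Nr2c2, and Mrps34 has 63.4% opposite Mapk8ip3 and 37.0% on the strand of Nme3. More than 20% of the exon bases are opposite another gene in 8 members, among them Mrpl19 (36%), Mrps18b (30.5%) and Mrpl24 (26.3%). On the same strand this holds for 3, among them Mrps18c (23.2%). Values of all these genes are uncertain, most of all those of Mrpl53, Mrps25 and Mrps34.

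In the wild type the family was expressed almost throughout. In LSK-WT cells, 74 of the 77 genes had at least 3 CPM, and per kb of principal transcript these 74 ran from 14.4 (10th percentile) over 44.4 (median) to 115 CPM per kb (90th percentile). Per kb of all annotated exons, the highest levels were those of Mrpl28 at 126.5, Mrpl34 at 120.0 and Mrpl12 at 95.4 CPM per kb. Per kb of principal transcript, the order began with Mrpl33 at 234, Mrpl28 at 163 and Mrpl36 at 136 CPM per kb, so the length used decides the top of the order, while Mrpl28 stays near it. The first place of Mrpl33 rests on a transcript of 478 bases, annotated under another Ensembl identifier than the one that holds its reads in the LSK table, and is uncertain. The lowest levels by either length were those of Mrps36, Mrpl23 and Mrpl53. Mrps36, whose protein is now assigned to the 2-oxoglutarate dehydrogenase complex rather than to the ribosome, had 2.63 CPM per kb of principal transcript. Mrpl23 had 0.919 CPM per kb, and Mrpl53 was at the floor, with 0 reads in both LSK-KO and 1 read in each LSK-WT library. Pseudogene copies of Mrpl23 and Mrps36 are listed in the tables, and reads that fit a gene and its copy can be lost or split, so these low values are uncertain. In N-WT cells the 3 highest per kb of all exons were Mrpl28 at 59.96, Mrpl34 at 56.5 and Mrpl14 at 55.8 CPM per kb, and the same 3 were lowest as in LSK-WT cells.

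In LSK cells, most of the family was higher in the knockout by a modest amount. Of 76 members that could be tested (Mrpl53 had too few reads), 47 rose in LSK-KO cells, none fell and 29 did not pass (edgeR's quasi-likelihood test over all genes, Benjamini-Hochberg adjusted p below 0.05). Of all 13008 genes tested, 21% rose and 21.2% fell. The median log2 fold change of the members was 0.40 (quartiles 0.24 and 0.58), against -0.03 over all genes. Among the 47 the fold ran from 1.22 to 1.96, with a median of 1.45, and no member reached 2-fold, while 587 genes of the whole table rose by more than that. The log2 fold changes ran from -0.31 to 0.97 among members, with an SD of 0.25. The SD was 0.41 among genes for proteins of the cytosolic ribosome and 1.01 over all genes.

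The groups rarely overlapped. In 62 of the 76 members (81.6%) both LSK-KO libraries lay above both LSK-WT libraries, which held for 34.6% of all genes, and in 1, Mrpl52, both lay below, which held for 38.3%. Zero members fell at an unadjusted p below 0.05 in edgeR, and DESeq2 also called 0 lower. With upper-quartile scaling in place of TMM the split was 35 higher and 1 lower (Mrpl52, log2 fold change -0.40, adjusted p = 0.0484), and over all genes 2207 higher and 3445 lower against 2738 and 2756 with TMM. With LSK-WT 1 or LSK-WT 2 left out, fewer members rose, and so did fewer of all genes. Fits without a library leave a single library in a group, and many of the 47 calls were lost in some of them. No member passed, and no gene of the table, when LSK cells and neutrophils shared a single estimate of the spread. In bulk RNA, more transcript per cell and more of the cells that make it cannot be told apart.

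**Figure D1:**
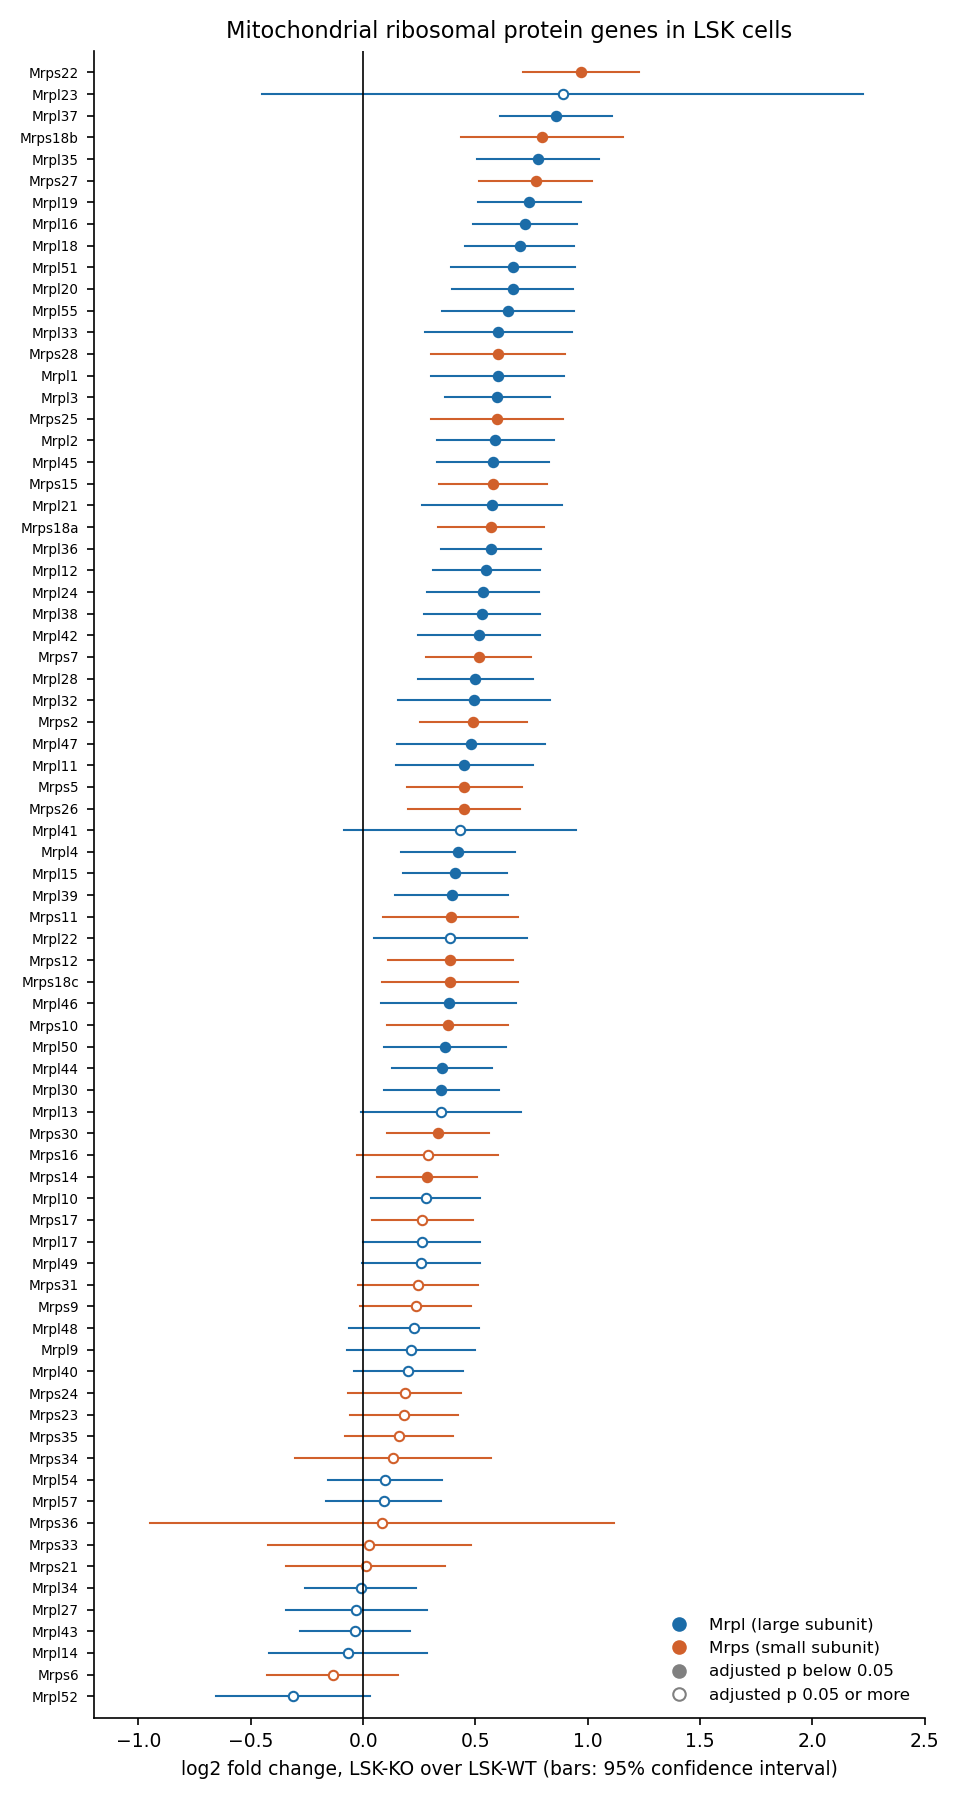
Log2 fold change of each of the 76 members tested in LSK cells, LSK-KO over LSK-WT (horizontal axis), with 95% confidence intervals as bars, blue for large and orange for small subunit names, filled where the adjusted p was below 0.05. The points run from -0.31 for Mrpl52 to 0.97 for Mrps22, and 70 of 76 lie above 0.

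The largest rise was that of Mrps22, a small subunit protein with no bacterial counterpart that is mutated in a human mitochondrial disease. Mrps22 (ENSMUSG00000032459, chromosome 9, 98588730 to 98601660, minus strand) was at 85.9 and 79.3 CPM in LSK-KO against 43.4 and 41.0 CPM in LSK-WT libraries. Both LSK-KO libraries lay far above both LSK-WT libraries, with a log2 fold change of 0.97 (SE 0.119, edgeR adjusted p = 4.42e-05). Mrps27, a pentatricopeptide repeat protein that binds RNA in the small subunit, was at 96.0 and 106 CPM in LSK-KO against 62.7 and 55.9 CPM in LSK-WT libraries (log2 fold change 0.77, SE 0.117, adjusted p = 2.14e-04). Its groups lay well apart, and 24.2% of its exon bases are shared with a gene on the other strand.

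Of the proteins inherited from bacteria, Mrpl16, Mrpl18, Mrpl19 and Mrpl35 rose most in the large subunit. Mrpl16 sits by the centre that joins amino acids and was at 113 and 119 CPM in LSK-KO against 68.1 and 72.5 CPM in LSK-WT libraries (log2 fold change 0.72, SE 0.107). Mrpl18 belongs to the central protuberance at the top of the subunit and was at 146 and 123 CPM in LSK-KO against 85.4 and 80.7 CPM in LSK-WT libraries (log2 fold change 0.70, SE 0.112). Mrpl19 was at 156 and 146 CPM in LSK-KO against 95.7 and 85.4 CPM in LSK-WT libraries (log2 fold change 0.74, SE 0.105). In none of these did the groups overlap, and the edgeR adjusted p values of the 3 were 0.000174, 0.000331 and 0.000132. Mrpl35 was at 74.7 and 88.5 CPM in LSK-KO against 48.6 and 46.5 CPM in LSK-WT libraries (log2 fold change 0.78, SE 0.125, adjusted p = 0.000317). Mrpl37, which was added in mitochondria, was at 107 and 119 CPM in LSK-KO against 65.4 and 58.8 CPM in LSK-WT libraries (log2 fold change 0.86, SE 0.115, adjusted p = 8.35e-05). It had the largest rise among large subunit genes that passed.

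Mrpl12, the protein of the mobile stalk that recruits translation factors, which is also known to bind the mitochondrial RNA polymerase, was at 234 and 194 CPM in LSK-KO against 152 and 140 CPM in LSK-WT libraries. Both knockout libraries were above both wild-type ones (log2 fold change 0.55, SE 0.110, adjusted p = 0.00156). Mrpl11, at the base of the stalk, rose by 0.45 on the log2 scale (adjusted p = 0.0213), while Mrpl10, which anchors Mrpl12, had a log2 fold change of 0.28 and did not pass (adjusted p = 0.0638). At the exit of the tunnel through which the new protein leaves, Mrpl45 holds the ribosome to the inner membrane, and it was at 73.9 and 73.2 CPM in LSK-KO against 48.3 and 50.1 CPM in LSK-WT libraries (log2 fold change 0.58, adjusted p = 0.00153). Mrpl24, beside the tunnel exit, rose by 0.53 on the log2 scale (adjusted p = 0.00253), and Mrpl22, of the tunnel wall, had 0.39 without passing (adjusted p = 0.0647). Mrpl44, which has a fold of the RNase III family, rose by 0.35 (adjusted p = 0.0151).

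In the small subunit, Mrps12 of the decoding centre rose by 0.39 on the log2 scale (edgeR adjusted p = 0.0279), Mrps7 of the head by 0.51 (adjusted p = 0.00211) and Mrps2 by 0.49 (adjusted p = 0.00334). Mrps9, also of the head, had 0.23 and did not pass (adjusted p = 0.119). Members of the trio that descends from bacterial S18 differ in place, since the Mrps18a protein sits in the large subunit in spite of its name, as does that of Mrps30. Mrps18b was at 27.6 and 30.5 CPM in LSK-KO against 17.0 and 16.5 CPM in LSK-WT libraries (log2 fold change 0.79, SE 0.166, adjusted p = 0.00212). Mrps18a was at 94.4 and 97.0 CPM in LSK-KO against 63.3 and 65.6 CPM in LSK-WT libraries (log2 fold change 0.57, SE 0.109, adjusted p = 0.00111). Mrps18c was at 70.0 and 54.9 CPM in LSK-KO against 49.5 and 46.0 CPM in LSK-WT libraries (log2 fold change 0.39, SE 0.139, adjusted p = 0.0404). The call of Mrps18c is the weakest of the trio and was lost without LSK-KO 1 (adjusted p = 0.212), LSK-WT 1 (0.105) or LSK-WT 2 (0.203) and with upper-quartile scaling (0.0991).

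By subunit, 30 of 47 Mrpl genes tested and 17 of 29 Mrps genes rose, with median log2 fold changes of 0.45 and 0.38. Beside these stand the 21% of all 13008 genes tested that rose. By origin, 31 of 46 genes named for a protein that bacteria also have rose, with a median of 0.45, and 16 of 30 without one, with a median of 0.36. These subsets and those by motif below are described only, their differences were not tested, and rises among all genes with a motif were not counted. Promoters with the ETS core belonged to 24 members tested, of which 12 rose (median 0.39), against 30 of 43 without it (median 0.45). For NRF1 the counts were 7 of 13 with the site (median 0.35) against 35 of 54 without it (median 0.45), and for YY1 7 of 8 with the site (median 0.57) against 35 of 59 without it (median 0.39). With the E-box 5 of 5 rose (median 0.59), against 37 of 62 without it (median 0.39), and with CCAAT 20 of 26 (median 0.47), against 22 of 41 without it (median 0.38). With GGGCGG 19 of 34 rose (median 0.39), against 23 of 33 without it (median 0.45), and with TATAAA 2 of 5 (median 0.26), against 40 of 62 without it (median 0.44).

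A log2 fold change below 0 was found in 6 members, none of which passed. Mrpl34, among the highest by length, was at 71.0 and 73.4 CPM in LSK-KO against 76.7 and 69.0 CPM in LSK-WT libraries, and its groups overlapped (log2 fold change -0.01, adjusted p = 0.95, above 0 by 0.01 with relative log expression scaling). Mrpl27, near the tRNA ends in the catalytic centre, had -0.03, Mrpl43 -0.04, Mrpl14 -0.07 and Mrps6 -0.14. Mrpl52 was at 33.0 and 26.7 CPM in LSK-KO against 40.2 and 33.9 CPM in LSK-WT libraries (log2 fold change -0.31, SE 0.158, adjusted p = 0.133). At the other end, Mrpl23 had the largest log2 fold change that did not pass, 0.89 (SE 0.617, adjusted p = 0.269), from 1.61 and 0.744 CPM in LSK-KO against 0.71 and 0.563 CPM in LSK-WT libraries. Mrpl41 was at 83.6 and 50.3 CPM in LSK-KO against 52.2 and 47.2 CPM in LSK-WT libraries (log2 fold change 0.43, SE 0.221, adjusted p = 0.158). Here LSK-KO 1 alone was high, and LSK-KO 2 lay within the wild-type range, so that Mrpl41 passed without LSK-KO 2 (adjusted p = 2.20e-06). Mrpl28 was at 277 and 217 CPM in LSK-KO against 179 and 170 CPM in LSK-WT libraries (log2 fold change 0.50, SE 0.117, adjusted p = 0.00476), a call that ended without LSK-WT 2 (adjusted p = 0.0579). Mrps36 had 0.08 (SE 0.478, adjusted p = 0.904), from 1.67 and 2.23 CPM in LSK-KO against 2.23 and 1.45 CPM in LSK-WT libraries.

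**Figure D2:**
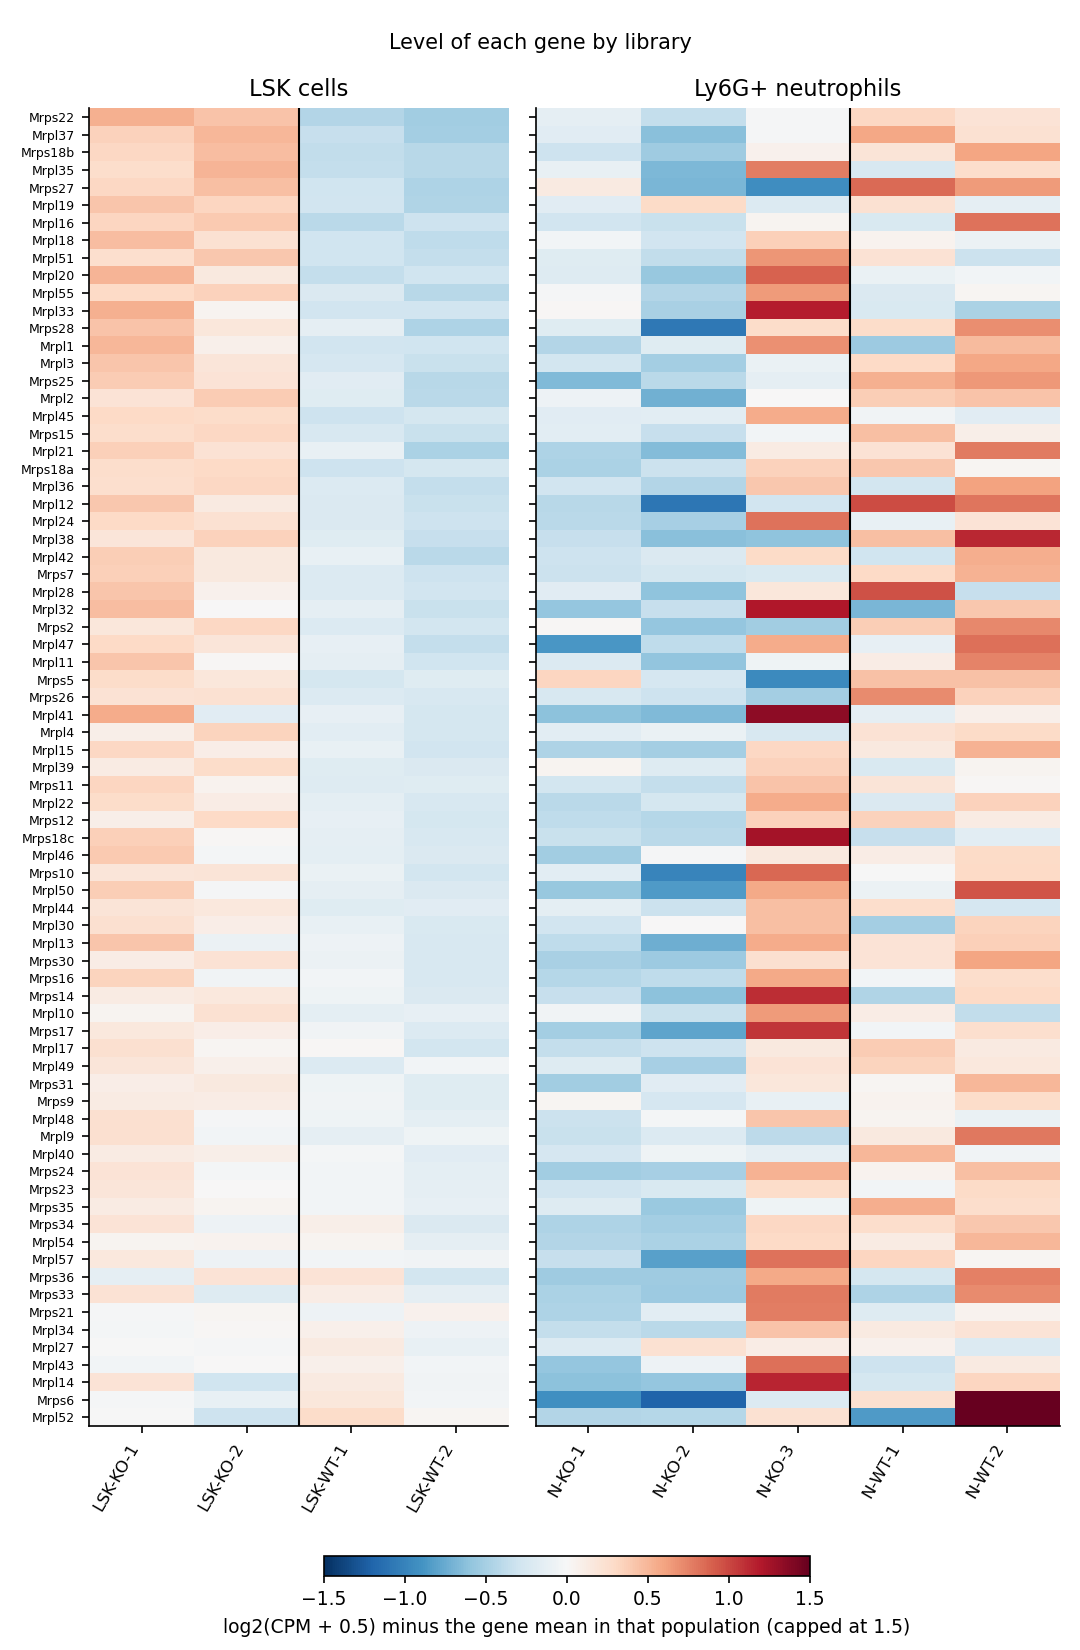
Level of the 75 members tested in both populations, as log2(CPM + 0.5) minus the mean of the gene over the libraries of that population (colour, capped at 1.5), with libraries as columns, knockout left of wild type, and genes ordered by LSK log2 fold change. The LSK-KO columns are above the LSK-WT columns for most genes, and N-KO 3 is the highest N-KO library in 64 of 75.

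Summed over the family, the members made up 0.682% and 0.618% of the counted reads of LSK-KO against 0.557% and 0.524% of those of LSK-WT libraries. In scaled units the sum was 6870 ± 463 CPM in LSK-KO and 5118 ± 283 CPM in LSK-WT cells (SD, n = 2 each), a ratio of 1.34. The ratio of large to small subunit sums was 2.25 and 2.09 in LSK-KO against 2.09 and 2.11 in LSK-WT libraries, so the groups overlapped in that balance. These sums go by gene name, so Mrps18a and Mrps30 count as small. Most genes for proteins of the cytosolic ribosome, which translates nuclear messages, did not pass. Of 75 tested, 6 rose, 10 fell and 59 did not pass in LSK-KO cells, while 21% of all genes rose and 21.2% fell. Their median log2 fold change was 0.02, against -0.03 over all genes. Their share of reads was 1.203% and 1.043% in LSK-KO against 1.41% and 1.219% in LSK-WT libraries. The difference between the families was not tested.

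**Figure D3:**
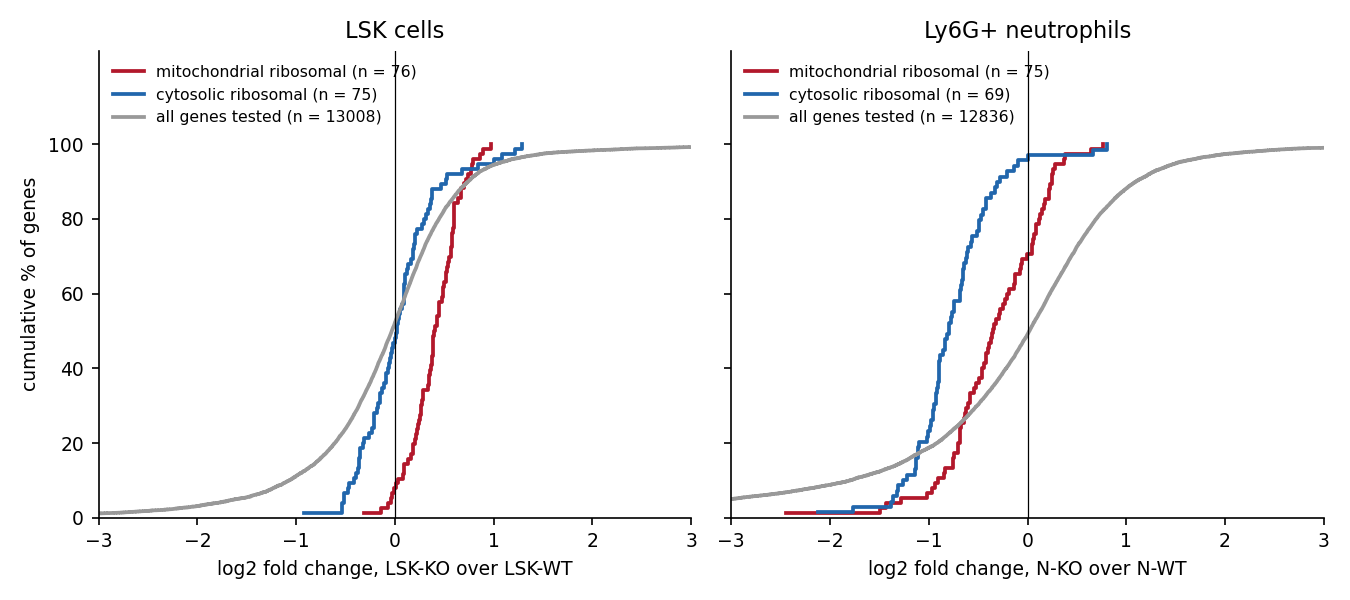
Cumulative share of genes (vertical axis, %) by log2 fold change of knockout over wild type (horizontal axis) for mitochondrial ribosomal, cytosolic ribosomal and all genes tested, in LSK cells (left) and neutrophils (right). In LSK cells the mitochondrial curve lies right of the others over most of its range, with a median of 0.40 against -0.03 for all genes, and in neutrophils its median is -0.35 against 0.02 for all genes.

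Other genes of mitochondrial translation rose in part, and their counts stand beside the 21% of all genes tested that rose and the 21.2% that fell. Of 6 mitoribosomal proteins under other names, 3 rose and none fell, with a median log2 fold change of 0.29. They were Ptcd3, a pentatricopeptide protein of the small subunit (0.61, adjusted p = 0.000374), Ict1, now Mrpl58, a hydrolase that frees stalled chains (0.58, adjusted p = 0.00451), and Dap3, a GTP-binding protein (0.26, adjusted p = 0.0426). Of 16 translation factors, 6 rose and none fell (median 0.29). Lrpprc, which stabilises mitochondrial messages, was at 201 and 205 CPM in LSK-KO against 96.6 and 98.1 CPM in LSK-WT libraries (log2 fold change 1.06, SE 0.0957, adjusted p = 4.50e-06). Gfm1, an elongation factor G, rose by 0.93 (adjusted p = 2.75e-05) and Tsfm, the exchange factor of elongation factor Tu, by 0.66 (adjusted p = 0.000815). Of 20 mitochondrial aminoacyl-tRNA synthetase genes and partners, which charge the tRNAs, 10 rose and none fell (median 0.43), among them Tars2 (0.85, adjusted p = 4.21e-05) and Aars2 (0.92, adjusted p = 0.000233).

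Of 27 genes for assembly of the particle and modification of its RNA, 7 rose and 1 fell (median 0.22), a share of risen genes near the 21% of all genes. C1qbp, a matrix protein needed for mitochondrial translation, was at 374 and 392 CPM in LSK-KO against 210 and 203 CPM in LSK-WT libraries (log2 fold change 0.89, SE 0.0905, adjusted p = 1.05e-05). Fastkd2, which binds the large ribosomal RNA, rose by 0.89 (adjusted p = 6.35e-05) and Wbscr16, now Rcc1l, by 0.68 (adjusted p = 0.000725). The gene that fell was Mrm1, a methyltransferase of that RNA, at 48.3 and 54.9 CPM in LSK-KO against 65.9 and 68.2 CPM in LSK-WT libraries (log2 fold change -0.38, adjusted p = 0.0244). Of 13 genes that copy or transcribe mitochondrial DNA, 2 rose and none fell (median 0.06), a share of risen genes below that of all genes. They were Top1mt, a topoisomerase (0.64, adjusted p = 0.00698), and 8430406I07Rik, now Mgme1, an exonuclease (0.34, adjusted p = 0.035). Polrmt, the RNA polymerase, had 0.27 (adjusted p = 0.0733). Tfam, which packages the mitochondrial genome, was at 135 and 115 CPM in LSK-KO against 133 and 111 CPM in LSK-WT libraries, and its groups overlapped (log2 fold change 0.03, adjusted p = 0.85). Genes encoded in the mitochondrial genome were not analysed here.

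Neighbours that start close by on the other strand changed in both directions. Of 28 partners tested that are no members, 11 rose, 4 fell and 13 did not pass in LSK-KO cells (median log2 fold change 0.36), while 17 of the 28 members beside them rose. Of all genes tested, 21% rose and 21.2% fell. Both genes rose in 7 pairs, among 17 with a risen member and 11 with a risen partner, and in 2 the member rose while the partner fell. Whether partners rose more often beside risen members was not tested. Mrpl18 rose by 0.70 beside Tcp1, a chaperonin subunit with 1.003 (adjusted p = 8.82e-06), and Mrpl51 by 0.67 beside Ncapd2, a condensin subunit with 0.82 (adjusted p = 3.40e-05). Mrpl36 rose by 0.57 beside Ndufs6, a subunit of respiratory complex I with 0.47 (adjusted p = 0.0254), and Mrps12 by 0.39 beside Sars2, the mitochondrial seryl-tRNA synthetase with 0.62 (adjusted p = 0.00738). The opposite pairs were Mrpl2, which rose by 0.59 beside Klc4 at -0.66 (adjusted p = 0.00193), and Mrpl50, which rose by 0.36 beside Zfp189 at -0.63 (adjusted p = 0.00964). In the pair of members, Mrpl46 rose by 0.38 and Mrps11 by 0.39. Mrpl46 shares 12.2% and Mrps11 7.96% of its exon bases with the other, and Mrpl36 and Mrpl18 also overlap their partners, so some reads of such pairs cannot be assigned.

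Markers of other states also differed between the genotypes in LSK cells. Of 12 markers of cycling cells, 11 rose, with sums of 4200 and 4463 CPM in LSK-KO against 2319 and 2201 CPM in LSK-WT libraries. Of 9 markers of neutrophil precursors, 6 rose and 2 fell, with sums of 16000 and 18780 CPM in LSK-KO against 1581 and 2109 CPM in LSK-WT libraries. Of 7 LSK markers, 6 fell and 1 rose, with sums of 2572 and 2822 CPM in LSK-KO against 4536 and 4285 CPM in LSK-WT libraries. Of the genes that define the sort, Kit was at 605 and 644 CPM in LSK-KO against 989 and 1050 CPM in LSK-WT libraries, and Ly6a at 193 and 227 CPM in LSK-KO against 169 and 157 CPM in LSK-WT libraries. No marker of these 3 lists was at 0 in all libraries of a group. Of 9 B cell markers tested, 7 fell and none rose, with sums of 62.6 and 69.0 CPM in LSK-KO against 164 and 154 CPM in LSK-WT libraries, and Pax5 was at 0 in LSK-KO. Of 8 red cell markers, 6 fell, with sums of 47.7 and 84.7 CPM in LSK-KO against 105 and 149 CPM in LSK-WT libraries, and Alas2, Slc4a1 and Hba-a2 were at 0 in LSK-KO. Of 8 monocyte and macrophage markers, 4 rose and 3 fell, with sums of 402 and 538 CPM in LSK-KO against 113 and 147 CPM in LSK-WT libraries. The part of these states in the rise of the ribosomal genes was not tested.

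In neutrophils no member passed the test, and most had a negative log2 fold change. Of 75 members tested, 0 passed edgeR's adjusted threshold, as did 0% of all 12836 genes. At an unadjusted p below 0.05 there were 5 members, all lower in N-KO cells (Mrpl12, Mrpl38, Mrps25, Mrps26 and Mrps6), against 4.79% of genes higher and 9.13% lower. DESeq2 called 3 lower and 0 higher, against 2.12% of genes higher and 4.71% lower. The log2 fold change was below 0 in 53 members and above 0 in 22, with a median of -0.35, against 0.02 over all genes. In 22 of 75 (29.3%) all N-KO libraries lay below both N-WT libraries, which held for 17.5% of all genes, and in none did all lie above, which held for 17%. With upper-quartile scaling the median of all genes was -0.12 in neutrophils, against 0.02 with TMM.

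Mrpl12, the stalk protein that rose in LSK-KO cells, was at 11.6, 7.10 and 12.7 CPM in N-KO against 31.2 and 27.5 CPM in N-WT libraries. The N-KO libraries were all under the N-WT ones by a wide gap (log2 fold change -1.49, SE 0.400, unadjusted p = 0.00736, edgeR adjusted p = 0.216, DESeq2 adjusted p = 0.0196). Mrpl38, of the central protuberance, was at 6, 4.85 and 4.95 CPM in N-KO against 10.8 and 17.7 CPM in N-WT libraries (log2 fold change -1.44, SE 0.439, adjusted p = 0.241, DESeq2 adjusted p = 0.0391). Mrps6 was at 1.45, 1.10 and 2.69 CPM in N-KO against 3.84 and 15.2 CPM in N-WT libraries (log2 fold change -2.45, SE 0.754, adjusted p = 0.241, DESeq2 adjusted p = 0.0373). For Mrps6 the wild-type libraries lay far apart, and the high one is N-WT 2, the library with lymphocyte markers. In other members N-KO 3 was the highest library. Mrpl33 was at 212, 150 and 477 CPM in N-KO against 179 and 151 CPM in N-WT libraries (log2 fold change 0.76, SE 0.589, adjusted p = 0.601), and Mrps18c at 31.2, 29.7 and 94.2 CPM in N-KO against 31.0 and 35.2 CPM in N-WT libraries (log2 fold change 0.64, SE 0.585, adjusted p = 0.656). Mrpl14 had 0.18 (SE 0.626), and it and Mrps18c turned negative without N-KO 3, to -0.67 and -0.13.

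**Figure D4:**
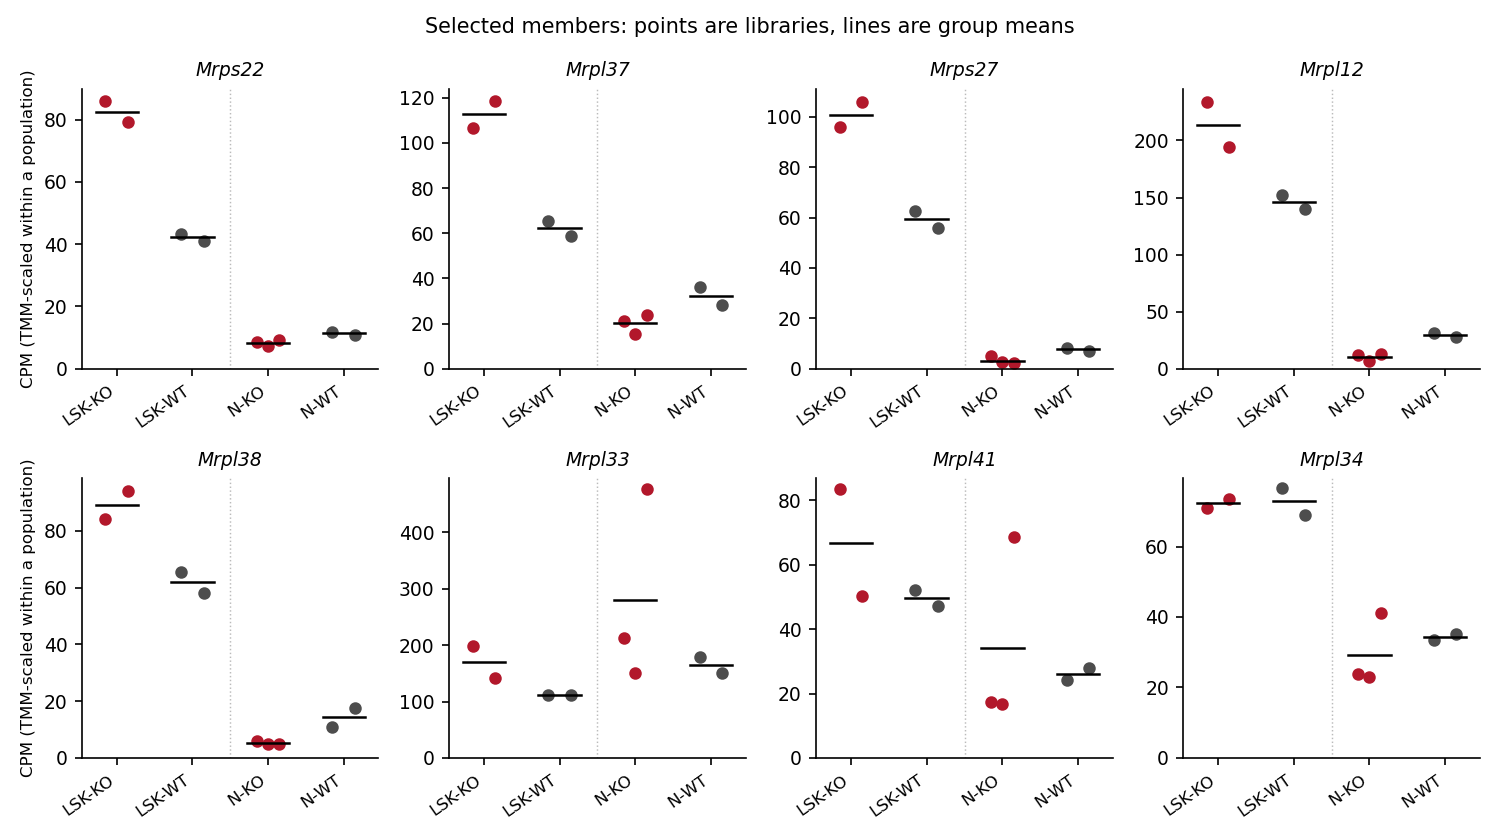
CPM (vertical axes, TMM-scaled within each population) of 8 members in each library, with points for libraries and lines for group means, in LSK-KO, LSK-WT, N-KO and N-WT groups from left to right. In Mrps22, Mrpl37, Mrps27, Mrpl12 and Mrpl38 the LSK-KO points lie above and the N-KO points below their wild types, and in Mrpl33 and Mrpl41 the N-KO 3 point lies far above all others of its population. The 8 were picked by hand. Across the family 47 members rose in LSK-KO cells, 22 had all N-KO libraries below N-WT, and 17 had both traits. The share of all genes with both was not counted. Scaling was done apart in the populations, so levels are compared within one.

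Across the family, N-KO 3 was the highest N-KO library in 64 of 75 members and lay above both N-WT libraries in 32, while N-KO 1 and N-KO 2 both lay below both N-WT libraries in 53. The share of all genes with these orders was not counted, and N-KO 3 was set apart after its values were seen. These counts therefore describe the libraries and cannot be read as particular to the family. The share of counted reads was 0.181%, 0.150% and 0.201% in N-KO against 0.248% and 0.395% in N-WT libraries, so every N-KO library was lower. After scaling the sums were 1777, 1626 and 3234 CPM in N-KO against 2277 and 2503 CPM in N-WT libraries, and N-KO 3 was the highest of all. The TMM factor of N-KO 3 was 0.621 and that of N-WT 2 was 1.58, against 0.924 to 1.09 in the other 3 libraries, so the order of these 2 libraries depends on the scaling. Without N-KO 3 the median log2 fold change was -0.63, without N-WT 2 it was -0.23, and without both it was -0.53. The ratio of large to small subunit sums, by gene name, was 2.57, 2.52 and 2.57 in N-KO against 2.30 and 2.18 in N-WT libraries, so the N-KO libraries were all above. A single gene, Mrpl33, gave 212, 150 and 477 of the 1278, 1164 and 2328 CPM of the large subunit sums in N-KO libraries. In N-WT libraries it gave 179 and 151 of 1586 and 1716 CPM. Mrpl33 thus made up more of the large subunit sum in every N-KO library than in either N-WT library. The ratio without Mrpl33 was not computed, and the part of this gene in the difference was not tested. By subunit, the median log2 fold change was -0.24 for Mrpl and -0.46 for Mrps genes.

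**Figure D5:**
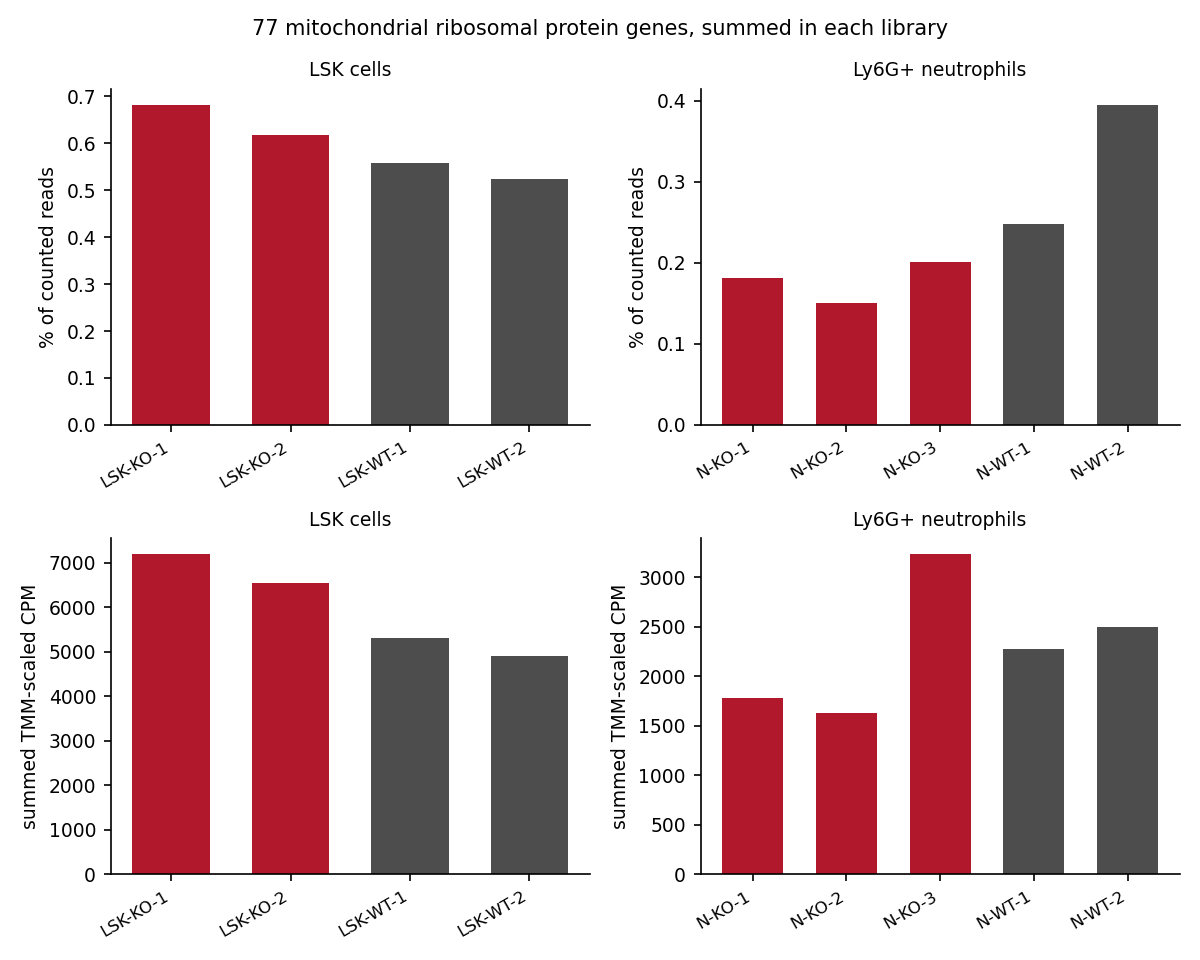
Sum of the 77 members in each library as a percentage of counted reads (upper panels) and in TMM-scaled CPM (lower panels), for LSK cells (left) and neutrophils (right), knockout bars left of wild type. Both LSK-KO bars exceed both LSK-WT bars on either scale, while in neutrophils N-KO 3 goes from below both N-WT bars to above them once scaled.

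Several sums of cell type markers also differed between the N-KO and N-WT libraries. The B cell marker sum was 5.20, 3.63 and 10.5 CPM in N-KO against 76.1 and 2070 CPM in N-WT libraries, and that of T and NK cells was 100, 43.0 and 135 CPM in N-KO against 190 and 1483 CPM in N-WT libraries. All 10 B cell and all 10 T and NK cell markers had a negative log2 fold change, and Pax5 and Ncr1 were at 0 in all N-KO libraries. The sum of 8 monocyte and macrophage markers was 334, 261 and 151 CPM in N-KO against 545 and 1367 CPM in N-WT libraries, and all 8 had a negative log2 fold change (median -2.68). The sum of 8 neutrophil markers was 128600, 131400 and 477700 CPM in N-KO against 79650 and 22480 CPM in N-WT libraries, with none of the 8 negative (median 1.82). No marker of these 4 lists passed edgeR's adjusted threshold. Neither did any of 8 red cell markers, with sums of 36.8, 2.17 and 18340 CPM in N-KO against 1730 and 3662 CPM in N-WT libraries. For 9 neutrophil precursor markers the sums overlapped, at 90970, 92180 and 171300 CPM in N-KO against 139600 and 15330 CPM in N-WT libraries. For 12 cycling markers they also overlapped, at 1485, 1003 and 1415 CPM in N-KO against 1785 and 421 CPM in N-WT libraries. No gene of either list passed. Cytosolic ribosomal protein genes had a median log2 fold change of -0.80 (66 of 69 negative, none passing), and 0.305%, 0.280% and 0.374% of reads in N-KO against 0.397% and 1.58% in N-WT libraries. The part of other cells in the neutrophil values was not tested. The other lists of mitochondrial translation also had no gene past the edgeR threshold, with median log2 fold changes of -0.24 for proteins under other names, -0.39 for assembly, -0.39 for translation factors, -0.77 for synthetases and -0.95 for mitochondrial DNA.

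The difference between the populations was tested itself, as the effect of genotype in neutrophils minus that in LSK cells, over all 9 libraries. In edgeR 0 of 76 members passed, while 24 had an unadjusted p below 0.05, all more negative in neutrophils. Of 13879 genes, 733 had an unadjusted edgeR p below 0.05 as more positive and 1443 as more negative. After adjustment 0.0288% passed as more positive and 0% as more negative. The difference was negative in 70 of 76 members and in 7920 of the 13879 genes, with medians of -0.75 and -0.21. DESeq2 called 12 members, all more negative, against 4.16% of genes more negative and 3.33% more positive. They were Mrpl3, Mrpl12, Mrpl37, Mrpl38, Mrps2, Mrps7, Mrps15, Mrps18b, Mrps22, Mrps25, Mrps26 and Mrps27. For Mrpl12 the difference was -2.09 on the log2 scale (SE 0.418, edgeR adjusted p = 0.163, DESeq2 adjusted p = 0.00138), and for Mrps22 it was -1.47 (SE 0.357, edgeR adjusted p = 0.177, DESeq2 adjusted p = 0.0024). The call therefore differs between the tools. Without N-WT 1 the edgeR difference was -1.95 for Mrpl12 and -2.27 for Mrpl38. In that fit N-WT 2, with its lymphocyte markers, is the only wild-type neutrophil library.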

How the data were processed

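RNA had been isolated with RNeasy Micro columns and amplified with the SMART-Seq v4 kit, per the labels, and STAR, featureCounts, bcl2fastq and DESeq2 stand in the submitters' processing notes with the builds mm10 and GRCm38, without versions. The authors deposited raw read counts per gene, used in all tests, and normalized values (a signal unit), used only to find the members and to pair LSK identifiers with symbols; these equal the counts divided by 1 factor per library. Counts were tested within each population with edgeR 4.0.16 (R 4.3.3; TMM, filterByExpr, robust quasi-likelihood, Benjamini-Hochberg, 0.05), and DESeq2 1.42.0 was an alternative. The difference between populations was an interaction over 34961 genes joined by symbol. Coordinates and lengths came from GENCODE M21 (GRCm38), promoters from RefSeq (GRCm38.p6). Floors cover counting error only, while intervals of fold changes come from the edgeR fit and include the spread between libraries.

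Members and lists were chosen with earlier results of these data known, so no list received a test. Full statistics went to the 8 largest rises, the 3 largest changes that did not pass, the 3 highest and lowest levels per length, the Mrps18 trio and Mrpl12, and of other lists to the 3 smallest p; members named beyond these for their role were chosen after their values were seen. No replicates looked like 1 library deposited again (mean chi-square over genes 9.87 or more). Replicate numbers were not used as a block. The procedure was tested on simulated data. The result of 1 gene is not reported here.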

Additional observations from a re-analysis of the deposited data

How the results depend on the processing

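The rise in LSK cells kept its direction in every alternative run (medians of 0.31 to 0.50), but the count of 47 fell to 0 when both populations shared 1 estimate of the spread and ran from 24 to 51 with a library left out, where a lone library is assumed to vary like the other group. Upper-quartile scaling gave 1 lower member, and leaving out a library gave 0. The replicate block gave 51 risen members in LSK cells, where 2881 of 13008 genes rose. In neutrophils it gave a median of -0.62 and called 86 of all genes higher and 248 lower, against 0 without it, and 0 members lower. Deviations of same-numbered libraries correlated at 0.036 in LSK cells, 0.26 (number 1) and -0.02 (number 2) in neutrophils, so the numbers were not taken to pair the libraries. In neutrophils DESeq2 called 3 members lower and the shared spread 2. For the difference between populations DESeq2 called 12 and leaving out a library 0 to 7. The summed neutrophil level changed sign, from -0.49 to 0.068 with a library left out.

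Of the genes named with full statistics, LSK values kept direction and call in 141 of the comparisons with an alternative, lost the call in 17, gained it in 4 and changed sign in 8. In neutrophils 106 were kept, 5 gained and 9 changed sign. The sign changes in LSK cells were those of Mrpl34 (0.0113 with DESeq2, 0.0113 with relative log expression scaling, 0.0103 with no filter, and -0.084 to 0.071 with a library left out) and Mrps36 (-0.0071 with upper-quartile scaling, -0.19 to 0.43 with a library left out). In neutrophils they were those of Mrpl14 (-0.64 with the block, -0.36 without N-WT 2 and N-KO 3, an alternative chosen after seeing the data, and -0.67 to 0.47 with 1 library left out), Mrps18c (-0.12 with the block, -0.043 without both, -0.13 to 0.90 with 1 left out), Mrpl28 (-1.17 to 0.23) and Mrps36 (-1.43 to 0.27). The cause was not tested. Mrpl53, Mrpl23 and Mrps36 had few reads, and the reason for that was not tested.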
